A study of Mus musculus with 4 samples.

Results

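Spiny projection neurons of the indirect pathway (D2) were compared with those of the direct pathway (D1) in wild-type mice (WT), gene by gene. The D2 WT neurons came from Drd2-EGFP reporter mice and the D1 WT neurons from Drd1-EGFP reporter mice. Cells of either kind were picked by their EGFP in a cell sorter. They came from the striatum, given as dStr (dorsal striatum) in the sample titles, of males aged 5 to 6 months on a C57BL/6J background. These mice were the wild-type animals of crosses with heterozygous zQ175 mice, a knock-in model of Huntington disease, and the D2 Q175 and D1 Q175 neurons of the heterozygous animals served here as a second pair of libraries. Each of the 4 libraries pooled cells of 4 animals at 150000 cells per animal, so every group had 1 library and no replicate check. A gene entered the comparison when it reached 5 CPM (counts scaled to library size) in D2 WT or D1 WT, which 10838 of the 37620 identifiers in the count table did. Each reporter was a bacterial artificial chromosome transgene on the promoter of the named dopamine receptor, so cell type, reporter line, animal pool and sort cannot be told apart. In pooled RNA, fewer cells of a kind and less RNA per cell cannot be told apart either.

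Both kinds of neuron release GABA and share most of their machinery for dopamine and cyclic AMP (cAMP) signalling. Direct pathway neurons project to the output nuclei of the basal ganglia and carry the D1 dopamine receptor, which raises cAMP through a stimulatory G protein. Indirect pathway neurons project to the external globus pallidus and carry the D2 dopamine receptor, which lowers cAMP, beside an adenosine receptor, Adora2a, which raises it. Enkephalin is the classical peptide of the indirect pathway, and substance P and dynorphin are those of the direct pathway.

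The labels were set beside marker lists. These were chosen with earlier results of these data known, so they are no independent check. All 7 D2 spiny neuron markers in the table were at least 2-fold higher in D2 WT, where they summed to 12358 CPM, against 110 CPM in D1 WT. All 10 D1 markers were at least 2-fold lower in D2 WT, where they summed to 196 CPM, against 4966 CPM in D1 WT. Of that D1 WT sum, the reporter gene Drd1 gave 1300 CPM and its neighbour Sfxn1 1853 CPM. Drd2, the other reporter gene, gave 2076 CPM of the sum of the D2 list in D2 WT. None of the 15 markers shared by spiny neurons was 2-fold apart, and their sums were 23003 CPM in D2 WT, beside 21866 CPM in D1 WT. Markers of glia were low in both libraries. Astrocyte markers summed to 488 CPM in D2 WT, beside 448 CPM in D1 WT, oligodendrocyte markers to 402 CPM in D2 WT, beside 370 CPM in D1 WT, and microglial markers to 42.1 CPM in D2 WT, beside 33.5 CPM in D1 WT, and no member of these lists that reached 5 CPM was 2-fold apart. Below that minimum Mag, a myelin protein, had 3.42 CPM in D2 WT, beside 1.60 CPM in D1 WT (log2 ratio 1.08). The cholinergic interneuron list summed to 54 CPM in D2 WT, beside 45.3 CPM in D1 WT, nearly all of it from Ache. Chat, which makes acetylcholine in cholinergic interneurons, stood at 0.629 CPM in D2 WT, beside 0.471 CPM in D1 WT, and at 0.754 CPM in D2 Q175, beside 0.239 CPM in D1 Q175. Slc5a7, the choline transporter of such cells, had 0.277 CPM in D2 WT, against no count in D1 WT, which allows up to 0.0784 CPM, and 0.731 CPM in D2 Q175, against 0.0239 CPM in D1 Q175. The part of cholinergic cells in other ratios was not tested. Slc17a7, a vesicular glutamate transporter of cortical neurons, was part of a list that summed to 1.38 CPM in D2 WT, beside 5.86 CPM in D1 WT, and itself had 0.302 CPM in D2 WT, beside 3.69 CPM in D1 WT. Total counts were 40957896 in D2 WT and 39444117 in D1 WT, so 1 CPM stood for 39.7 counts in D2 WT and 38.2 in D1 WT, and mitochondrial genes took 6.49% of the counts in D2 WT and 6.06% in D1 WT.

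**Figure D1:**
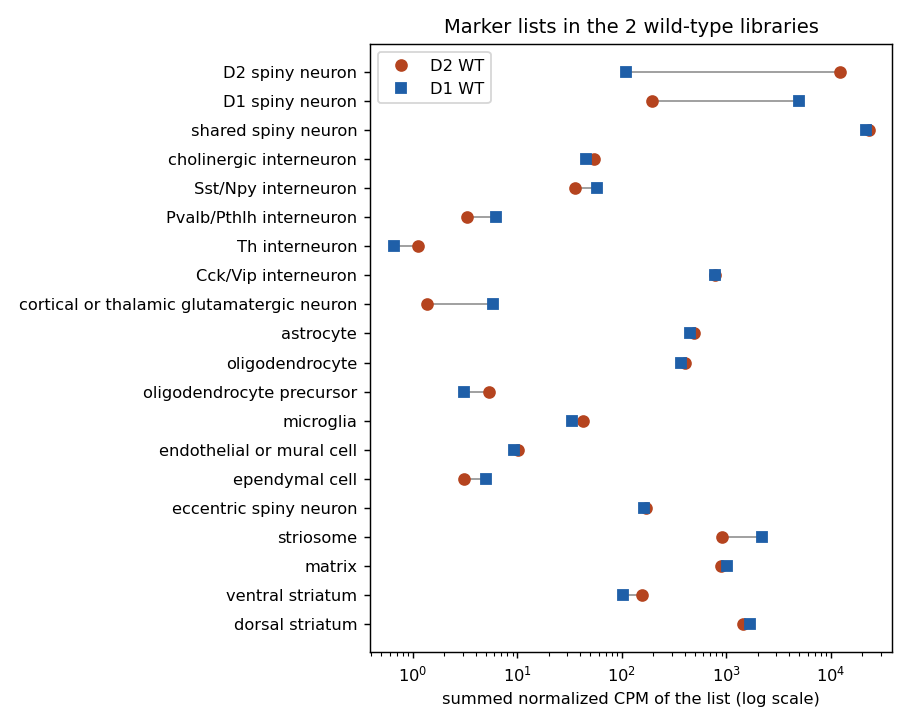
Summed normalized CPM (log axis) of each marker list in D2 WT (circles) and D1 WT (squares), 1 library each. The D2 list stands at 12358 CPM in D2 WT, beside 110 CPM in D1 WT, the D1 list at 196 CPM in D2 WT, beside 4966 CPM in D1 WT, and the list shared by spiny neurons at 23003 CPM in D2 WT, beside 21866 CPM in D1 WT.

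Most genes stood close together in the 2 libraries. The median log2 ratio of D2 WT over D1 WT was -0.03 over the 10838 genes, and 92.5% of them lay within 0.5 log2 units of 0. At least 2-fold higher in D2 WT were 94 genes (0.867%), and at least 2-fold lower were 134 (1.24%), together 228 (2.1%). The extreme ratios were few: 15 genes lay at log2 ratios of 5 or more and 8 at -5 or less. Every one of the 228 ratios had a 95% counting interval that excluded 0. At 5 CPM or more in either library, the counts behind a 2-fold ratio leave no other outcome, so this adds no support. The interval covers counting error and not the spread between animals. Near the 2-fold limit, 34 genes lay just inside it (log2 size 1.0 to 1.1) and 58 just outside (0.9 to 1.0). A gene under 5 CPM in either library entered only through the other, where it was higher. The highest CPM was under 10 for 36 of the 94 higher genes and 37 of the 134 lower ones.

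**Figure D2:**
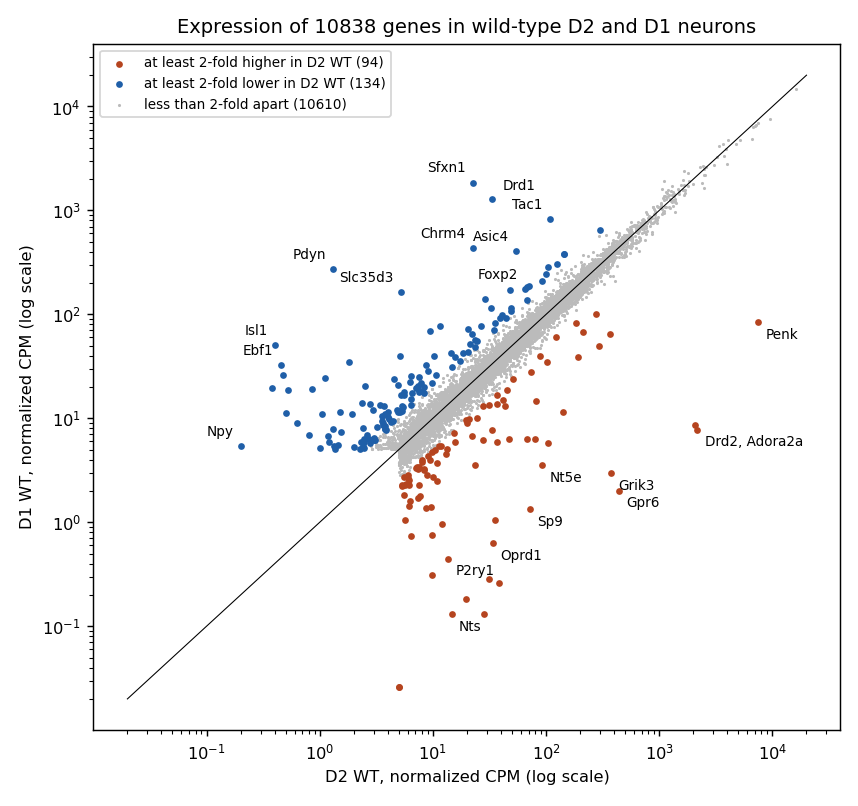
Normalized CPM of 10838 genes in D2 WT (horizontal) and D1 WT (vertical), both on log axes, 1 point per gene and 1 library per axis. The 94 genes at least 2-fold higher in D2 WT lie below the diagonal and the 134 at least 2-fold lower lie above it, with Penk, Drd2 and Adora2a far to the right and Drd1, Sfxn1 and Pdyn far above the diagonal.

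The Q175 pair shares no library with the WT pair, so its ratio of D2 Q175 over D1 Q175 was set beside the WT ratio. Of 11000 genes compared there, 0.764% were higher in D2 Q175 by 2-fold or more and 1.09% lower by as much. Of the 94 genes higher in D2 WT, 64 (68.1%) were also at least 2-fold higher in D2 Q175 and 93 had the same sign. Of the 134 genes lower in D2 WT, 93 (69.4%) were also at least 2-fold lower in D2 Q175 and 132 had the same sign. Read from the Q175 side, 67 of 84 higher genes (79.8%) and 96 of 120 lower genes (80%) were called the same way in WT, and no gene was 2-fold apart in opposite directions. The only test the design allowed was an edgeR quasi-likelihood fit over the 4 libraries that has an additive term for genotype beside the one for cell type, which called 777 of the 10838 genes higher (7.17%) and 827 lower (7.63%) at an adjusted p under 0.05. It leaves 1 residual degree of freedom and includes the WT pair, so passing it after a 2-fold WT ratio is not independent of that ratio. Without the genotype term the same fit called 31 of these genes higher and 39 lower. Whether the WT and Q175 ratios of a gene differ could not be tested.

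**Figure D3:**
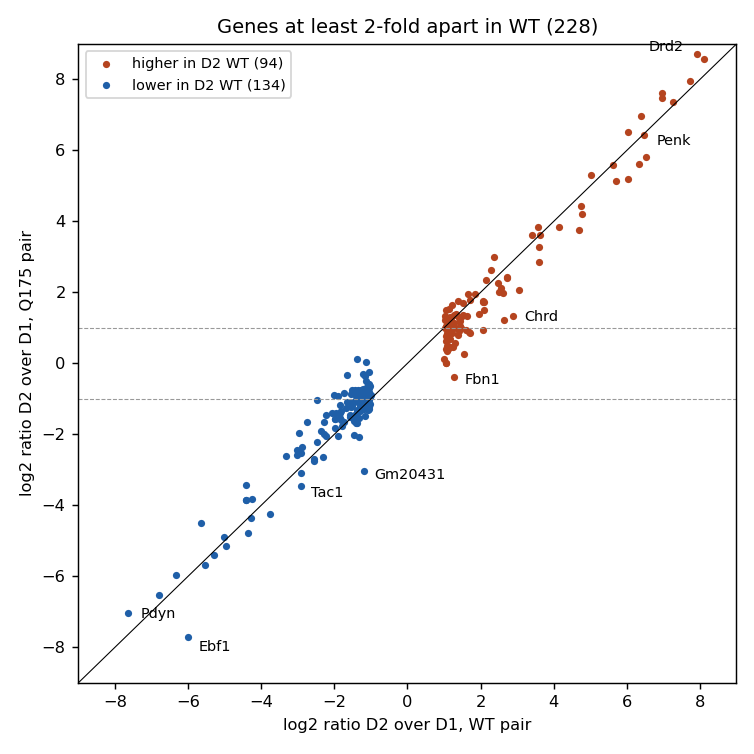
Log2 ratio of D2 over D1 in the WT pair (horizontal) and in the Q175 pair (vertical) for the 228 genes at least 2-fold apart in WT, 1 point per gene, with the diagonal drawn and the 2-fold limits of the Q175 pair dashed. Of the 94 higher genes 93 keep their sign in the Q175 pair, and of the 134 lower genes 132 do.

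G protein coupled receptors stood far apart more often than the average gene. Of 87 such genes, 10 (11.5%) were at least 2-fold higher in D2 WT and 8 (9.2%) at least 2-fold lower, beside 0.867% and 1.24% of all genes compared, while the median log2 ratio of the class was -0.01. Over both genotypes the edgeR fit called 15 of them higher in D2 and 19 lower (39.1%), beside 14.8% of all genes compared. The class holds Drd2 and Drd1, whose promoters drove the sort reporters, and its list was completed after values were seen. Its shares are therefore a description and no test.

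The dopamine and adenosine receptors held the extremes. Adora2a, the adenosine receptor that raises cAMP in the striatum, had 2173 CPM in D2 WT, against 7.79 CPM in D1 WT; in the Q175 pair it had 1336 CPM in D2 Q175, against 3.47 CPM in D1 Q175. Its log2 ratio of 8.11 (95% interval 7.96 to 8.29) was the highest of all genes compared. Drd2, the D2 dopamine receptor, had 2076 CPM in D2 WT, against 8.58 CPM in D1 WT, a log2 ratio of 7.91 (7.76 to 8.08). Both genes were thus abundant in each D2 library and under 10 CPM in each D1 library, and both passed the fit. Drd1, the D1 dopamine receptor, had 33.0 CPM in D2 WT, against 1300 CPM in D1 WT, a log2 ratio of -5.30 (-5.38 to -5.22; edgeR adjusted p = 3.67e-22). The level of Drd1 in D2 WT was 2.54% of that in D1 WT, and the level of Drd2 in D1 WT was 0.413% of that in D2 WT. Drd3 and Drd4 were under the minimum in both libraries, with 0.0503 and 0.176 CPM in D2 WT, beside 0.471 and 0.366 CPM in D1 WT. Drd5 had no count in either, which allows up to 0.0755 CPM in D2 WT, beside 0.0784 CPM in D1 WT. Adora1, the A1 adenosine receptor, stood at 182.5 CPM in D2 WT, beside 212.3 CPM in D1 WT and did not pass the fit (edgeR adjusted p = 0.666).

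Gpr6, an orphan receptor that raises cAMP without a known ligand, had 438.9 CPM in D2 WT, against 2.01 CPM in D1 WT. Its log2 ratio was 7.73 in the WT pair and 7.97 in the Q175 pair. The promoters of Drd2, Gpr6 and Drd1 are printed here because Drd2 and Drd1 drive the sort reporters and Gpr6 is among the receptors with the highest ratios. Each window runs 250 bases before to 50 bases after the gene's start in RefSeq (GRCm38.p6), 5′ to 3′ on the gene's strand. Capitals mark the cAMP response element TGACGTCA or the GC box GGGGCGGGG, on either strand.
Drd2, chr9:49340153-49340452, plus strand: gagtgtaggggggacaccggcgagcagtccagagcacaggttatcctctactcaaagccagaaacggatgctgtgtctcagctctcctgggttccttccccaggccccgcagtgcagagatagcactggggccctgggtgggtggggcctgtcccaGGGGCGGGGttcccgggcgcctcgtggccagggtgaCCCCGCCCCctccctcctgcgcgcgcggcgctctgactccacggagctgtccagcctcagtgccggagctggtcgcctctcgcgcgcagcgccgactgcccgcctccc
Gpr6, chr10:41072241-41072540, minus strand: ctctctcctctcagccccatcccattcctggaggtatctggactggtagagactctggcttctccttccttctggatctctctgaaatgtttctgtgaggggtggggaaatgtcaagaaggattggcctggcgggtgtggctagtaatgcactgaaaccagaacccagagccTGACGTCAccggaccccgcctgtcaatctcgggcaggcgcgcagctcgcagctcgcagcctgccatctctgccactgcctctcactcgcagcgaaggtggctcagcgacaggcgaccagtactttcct
Drd1, second of its listed starts, chr13:54054731-54055030, minus strand: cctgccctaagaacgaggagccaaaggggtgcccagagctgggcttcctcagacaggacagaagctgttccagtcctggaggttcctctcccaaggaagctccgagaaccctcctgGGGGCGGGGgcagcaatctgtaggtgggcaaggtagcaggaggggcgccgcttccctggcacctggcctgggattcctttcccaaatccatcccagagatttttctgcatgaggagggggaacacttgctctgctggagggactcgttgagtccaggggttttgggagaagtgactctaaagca
Drd2 has a GC box at positions -94 to -86 and another, on the opposite strand, at -58 to -50 from the start. Gpr6 has a full cAMP response element at -78 to -71, and the Drd1 window shown has a GC box at -134 to -126. The window at the other Drd1 start holds neither motif. A GC box is in 18.4% of the windows of the genes at least 2-fold higher in D2 WT, 20.7% of those at least 2-fold lower and 21.2% of those of all genes compared, and the cAMP response element is in 1.15%, 1.72% and 3.24%. The windows matched 64 of 93 higher genes with a symbol, 93 of 133 lower ones and 8311 of 10610 in all. These matches are letters in a window and not binding sites.

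The remaining receptors higher in D2 WT bind opioids, nucleotides, acetylcholine, serotonin and peptides. Oprd1, the delta opioid receptor at which enkephalin acts, had 33.7 CPM in D2 WT, against 0.628 CPM in D1 WT, a log2 ratio of 5.64. P2ry1, a receptor for ADP, had 13.6 CPM in D2 WT, against 0.445 CPM in D1 WT. Chrm3, a muscarinic receptor that acts through phospholipase C, had 9.81 CPM in D2 WT, against 0.314 CPM in D1 WT, and Htr4, a serotonin receptor that raises cAMP, had 9.59 CPM in D2 WT, against 1.41 CPM in D1 WT. All 4 genes were at least 2-fold higher in D2 Q175 as well, at log2 ratios of 5.59, 4.22, 4.44 and 2.41. Smaller ratios were those of Agtr1a (1.59), the angiotensin receptor, of the orphan Gpr149 (1.38), and of Crhr1 (1.20), the receptor of corticotropin-releasing factor, which had 31.2 CPM in D2 WT, beside 13.5 CPM in D1 WT.

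Beside Drd1, the receptors at least 2-fold lower in D2 WT bind acetylcholine, noradrenaline and peptides or are orphans. Chrm4, the muscarinic receptor that opposes D1 signalling, had 22.4 CPM in D2 WT, against 437.1 CPM in D1 WT, at log2 ratios of -4.28 in the WT pair and -4.34 in the Q175 pair. Adra2c, an alpha-2 adrenergic receptor, had 28.9 CPM in D2 WT, against 141.1 CPM in D1 WT (log2 ratio -2.29), and its relative Adra2b had 1.54 CPM in D2 WT, against 7.35 CPM in D1 WT (-2.22). Sstr2, a somatostatin receptor, had a log2 ratio of -1.85, and Npy1r, a receptor of neuropeptide Y, one of -1.29. Gpr26, an orphan receptor, had 104.0 CPM in D2 WT, against 284.4 CPM in D1 WT, with log2 ratios of -1.45 in the WT pair and -2.01 in the Q175 pair. Trhr2, a receptor of thyrotropin-releasing hormone in rodents, had the smallest ratio of the 8 (-1.08).

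Within receptor families, members diverged or stayed level. Among muscarinic receptors, Chrm3 and Chrm4 lay at opposite ends, while Chrm1 had 244.8 CPM in D2 WT, beside 279.9 CPM in D1 WT and did not pass the fit (edgeR adjusted p = 0.673). Among opioid receptors, Oprd1 was high in D2 WT, while Oprk1, the receptor of dynorphin, had 45.8 CPM in D2 WT, beside 41.2 CPM in D1 WT (edgeR adjusted p = 0.579). Oprm1, the mu receptor, was under the minimum in both, at 0.453 CPM in D2 WT, beside 0.706 CPM in D1 WT. Oprl1, the nociceptin receptor, had a log2 ratio of -0.64 in the WT pair and -0.15 in the Q175 pair (edgeR adjusted p = 0.0210). Among metabotropic glutamate receptors, 6 genes spanned -0.79 to 0.09, with Grm8 at the low end (8.03 CPM in D2 WT, 13.9 CPM in D1 WT). The 11 adhesion receptors spanned -0.24 to 0.30 and none passed the fit. Htr2c, a serotonin receptor, was under 2-fold apart with 83.3 CPM in D2 WT, beside 47.5 CPM in D1 WT, and passed (edgeR adjusted p = 2.91e-07).

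The deposited FPKM, which are scaled to transcript length, order the receptors by level within each library. Among the highest in D2 WT were Adora2a (832.2 FPKM), Drd2 (800.0 FPKM) and the adhesion receptor Adgrb1 (318.3 FPKM). Among the highest in D1 WT were Drd1 (357.6 FPKM), Adgrb1 (272.1 FPKM) and Gabbr1, a GABA-B receptor subunit (268.4 FPKM), with Chrm4 at 153.1 FPKM. Without replicates, the order of neighbours such as Adora2a and Drd2 has no error. Ackr1 appears in this ranking at 91.8 FPKM in D2 WT and 92.5 FPKM in D1 WT, but it overlaps Cadm3 in the reference annotation, so its reads are uncertain.

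**Figure D4:**
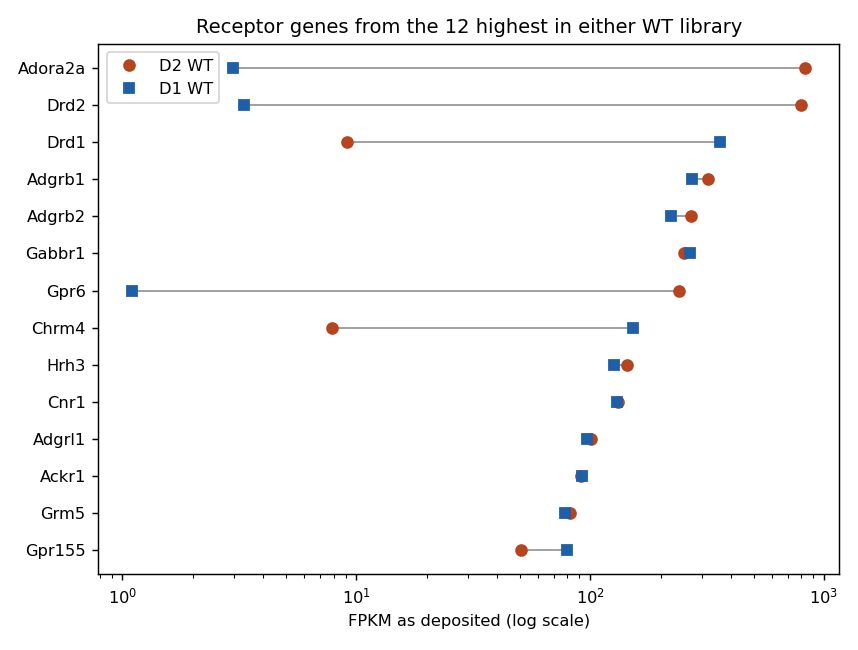
Deposited FPKM (log axis) in D2 WT (circles) and D1 WT (squares) of receptor genes among the 12 highest in either library, 1 library each. Adora2a, Drd2 and Gpr6 lie far higher in D2 WT (832.2, 800.0 and 240.1 FPKM), Drd1 and Chrm4 far higher in D1 WT (357.6 and 153.1 FPKM), and the others lie close together.

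Peptide precursor genes were few and split. Of 18 compared, 3 were at least 2-fold higher in D2 WT and 3 at least 2-fold lower (16.7% each way). Of all genes compared, 0.867% were higher and 1.24% lower by as much. The fit called 4 of the 18 higher and 6 lower, beside 7.17% and 7.63% of all genes compared. Penk, the enkephalin precursor, had 7476 CPM in D2 WT, against 84.2 CPM in D1 WT, and 5438 FPKM in D2 WT, against 60.8 FPKM in D1 WT. Its log2 ratio was 6.47 (6.42 to 6.52) in the WT pair and 6.42 in the Q175 pair. Pdyn, the dynorphin precursor, had 1.31 CPM in D2 WT, against 273.5 CPM in D1 WT, and its log2 ratio of -7.65 (-8.13 to -7.32) was the lowest of all genes compared. Tac1, the precursor of substance P, had 108.5 CPM in D2 WT, against 823.5 CPM in D1 WT, a log2 ratio of -2.92. Tac1 was thus less fully separated than Pdyn: its level in D2 WT was 13.2% of that in D1 WT, and that of Pdyn 0.478%.

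Nts, the neurotensin precursor, had 14.7 CPM in D2 WT, against 0.131 CPM in D1 WT, at log2 ratios of 6.34 in the WT pair and 5.63 in the Q175 pair. Nts is also on the ventral striatum list, whose sum was 157 CPM in D2 WT, beside 102 CPM in D1 WT. Of its 5 genes that reached the minimum, 3 were at least 2-fold higher (Nts, Nnat and Stard5) and none lower. Of all genes compared, 0.867% were higher and 1.24% lower by as much. Other genes of that list pointed the other way: Crym had 36.9 CPM in D2 WT, beside 51.9 CPM in D1 WT, and, below the minimum, Dlk1 had 0.101 CPM in D2 WT, beside 0.915 CPM in D1 WT. Tacr3 had no count in D2 WT, which allows up to 0.0755 CPM, beside 0.209 CPM in D1 WT. Drd3, of the same list, was lower in D2 WT too (log2 ratio -2.36). Also on that list and below the minimum, Cartpt (log2 ratio 2.56) and Tacr1 (0.98) pointed the same way as Nts. The dorsal list summed to 1446 CPM in D2 WT, beside 1694 CPM in D1 WT, with Reln at 149.0 CPM in D2 WT, beside 253.0 CPM in D1 WT, while Cnr1 had 783.3 CPM in D2 WT, beside 772.5 CPM in D1 WT, and Coch 254.0 CPM in D2 WT, beside 262.9 CPM in D1 WT. None of the 4 dorsal genes at the minimum was 2-fold apart. Below it, Gpr139 had 0.704 CPM in D2 WT, beside 3.66 CPM in D1 WT, and Npbwr1 0.478 CPM in D2 WT, beside 0.288 CPM in D1 WT. The part of the dissected region in the Nts ratio was not tested. Npy, the precursor of neuropeptide Y, had 0.201 CPM in D2 WT, against 5.39 CPM in D1 WT (log2 ratio -4.43). The list of interneurons that make neuropeptide Y summed to 35.4 CPM in D2 WT, beside 58.2 CPM in D1 WT. Of its 4 genes at the minimum 2 were at least 2-fold lower (Npy and Npy1r), beside 1.24% of all genes compared. Of its other markers, Sst had 0.528 CPM in D2 WT, beside 0.523 CPM in D1 WT, and Nos1 5.06 CPM in D2 WT, beside 4.97 CPM in D1 WT. Chodl had no count in D2 WT, beside 0.0784 CPM (3 counts) in D1 WT, and the part of these interneurons in the Npy ratio was not tested. Nucb2, which encodes the precursor of nesfatin-1, had 45.2 CPM in D2 WT, against 18.6 CPM in D1 WT. The granins and peptide-processing genes spanned -0.86 to 0.13, with Scg2 the lowest at 120.1 CPM in D2 WT, beside 217.3 CPM in D1 WT (edgeR adjusted p = 1.64e-07). Cartpt, below the minimum, had 1.64 CPM in D2 WT, beside 0.235 CPM in D1 WT.

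Among 168 ion channel genes, 4 (2.38%) were at least 2-fold higher in D2 WT and 9 (5.36%) at least 2-fold lower. Of all genes compared, 0.867% were higher and 1.24% lower by as much, and the class median was -0.04. Over both genotypes the edgeR fit called 21 of the channel genes higher and 26 lower (28%), beside 14.8% of all genes compared. Grik3, the kainate receptor subunit GluK3, stood apart from the rest of its family, with 372.9 CPM in D2 WT, against 2.96 CPM in D1 WT. Its log2 ratio was 6.95 (6.71 to 7.26) in the WT pair and 7.47 in the Q175 pair, while the lowest of the 11 ionotropic glutamate subunit genes was at -0.33. Gabra3, a GABA-A receptor subunit, had 23.7 CPM in D2 WT, against 3.56 CPM in D1 WT (2.72), and the lowest of the 12 GABA-A and glycine receptor genes was at -0.41. Chrna4, a subunit of high-affinity nicotinic receptors, had 27.9 CPM in D2 WT, against 6.25 CPM in D1 WT (2.15). Trpc4, a receptor-operated cation channel, had 9.76 CPM in D2 WT, against 0.758 CPM in D1 WT (3.60), whereas its relative Trpc7 was lower in D2 WT (-1.28).

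Asic4, of the acid-sensing channel family, was the most abundant of the channels lower in D2 WT, with 54.1 CPM in D2 WT, against 408.7 CPM in D1 WT, at log2 ratios of -2.92 in the WT pair and -3.08 in the Q175 pair. Asic4 is also on the striosome marker list, as are Tac1 and Pdyn. That list summed to 904 CPM in D2 WT, beside 2170 CPM in D1 WT. Of its 11 genes at the minimum these 3 were at least 2-fold lower, beside 1.24% of all genes compared. Tac1 and Pdyn are on the list of D1 markers as well. Nnat was at least 2-fold higher, with 74.1 CPM in D2 WT, against 27.9 CPM in D1 WT. Under 2-fold apart were Nr4a1 at 379.5 CPM in D2 WT, beside 299.5 CPM in D1 WT, Kremen1 at 58.5 CPM in D2 WT, beside 83.3 CPM in D1 WT, and Lypd1 at 69.6 CPM in D2 WT, beside 83.8 CPM in D1 WT. The list of the opposite compartment, the matrix, summed to 889 CPM in D2 WT, beside 1009 CPM in D1 WT. Of its 10 genes, 2 were at least 2-fold lower in D2 WT, Zfp521 (-4.41) and Cntnap3 (-4.24), and none higher. Over all genes compared these shares were 1.24% lower and 0.867% higher. The part of either compartment in these ratios was not tested. Potassium channels gave 3 of the 9 lower genes and none of the higher ones out of 46 (6.52% lower), beside 1.24% lower and 0.867% higher of all genes compared. Kcnk13, a tandem-pore leak channel, had 1.51 CPM in D2 WT, against 11.6 CPM in D1 WT, and Kcng1, a modulatory subunit silent on its own, had 32.5 CPM in D2 WT, against 116.2 CPM in D1 WT. Kcnj3, the GIRK1 channel that inhibitory receptors open, had 7.17 CPM in D2 WT, against 19.6 CPM in D1 WT. Cftr, a chloride channel (-2.46), Calhm2, a calcium homeostasis modulator (-2.23), Lrrc55, an auxiliary subunit of BK channels (-1.27), and the calcium channel Trpv6 (-1.05) made up the rest, none above 21 CPM in D1 WT. The 10 sodium channel genes spanned -0.35 to 0.19 and the 20 calcium channel genes -0.17 to 0.73, with Cacna2d2 highest at 182.7 CPM in D2 WT, beside 110.3 CPM in D1 WT.

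Transcription factors as a class were close to the background, with 7 of 623 (1.12%) at least 2-fold higher in D2 WT and 10 (1.61%) at least 2-fold lower. The fit called 14.3% of them either way, beside 14.8% of all genes compared. A small number of lineage factors had large ratios. Sp9, a zinc finger factor needed in mice for indirect pathway neurons to develop, had 72.5 CPM in D2 WT, against 1.33 CPM in D1 WT, at log2 ratios of 5.71 (5.37 to 6.19) in the WT pair and 5.13 in the Q175 pair. Isl1, a LIM homeodomain factor of direct pathway neurons in mice, had 0.403 CPM in D2 WT, against 50.3 CPM in D1 WT (-6.79, interval -7.78 to -6.26). Ebf1, a helix-loop-helix factor that direct pathway neurons need in mice, had 0.453 CPM in D2 WT, against 32.4 CPM in D1 WT, at -6.01 in the WT pair and -7.71 in the Q175 pair. These 3 genes therefore stood under 1.5 CPM in the library of the other cell type.

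Further factors lower in D2 WT were Zfp521, a zinc finger factor (1.11 CPM in D2 WT, 24.6 CPM in D1 WT), and Ikzf1, which encodes Ikaros (0.629 CPM in D2 WT, 9.07 CPM in D1 WT). Eya1, a transcriptional coactivator, had 1.06 CPM in D2 WT, beside 11.1 CPM in D1 WT. Foxp2, a forkhead factor linked to vocal learning, was more abundant and less separated, with 65.7 CPM in D2 WT, against 175.1 CPM in D1 WT, and log2 ratios of -1.41 in the WT pair and -1.43 in the Q175 pair. Its relatives Foxp1 (579.3 CPM in D2 WT, 522.6 CPM in D1 WT) and Foxp4 (23.5 CPM in D2 WT, 35.9 CPM in D1 WT) were under 2-fold apart. Onecut2 (-1.15), Mycn (-1.04) and Cebpa (-1.03) lay near the limit. Higher in D2 WT beside Sp9 were the forkhead factor Foxo6 (33.3 CPM in D2 WT, 7.79 CPM in D1 WT) and Sox2, a factor of neural progenitors (9.99 CPM in D2 WT, 2.75 CPM in D1 WT). Tead3 (1.43), Casz1 (1.26), Rreb1 (1.14) and Etv4 (1.01) were at lower ratios, and Rreb1 was the most abundant of them at 183.1 CPM in D2 WT, beside 83.0 CPM in D1 WT. Of 27 striatal lineage factors on a list chosen with such values known, 2 were at least 2-fold higher in D2 WT and 7 lower, beside 0.867% and 1.24% of all genes compared, and the fit called 6 higher and 10 lower, beside 7.17% and 7.63%. Factors that specify all spiny neurons stood level, such as Bcl11b at 443.5 CPM in D2 WT, beside 476.1 CPM in D1 WT, and Meis2 at 656.7 CPM in D2 WT, beside 652.8 CPM in D1 WT.

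Of 31 genes on a list of dopamine receptors and the cAMP cascade, 2 were at least 2-fold higher in D2 WT (Drd2 and Gnas). Another 2 were lower by as much (Drd1 and Gnai1), beside 0.867% higher and 1.24% lower of all genes compared. The list median was -0.10. The edgeR fit called 4 of the 31 higher and 6 lower, beside 7.17% and 7.63% of all genes compared. Among 170 genes of cAMP and G protein signalling at large, 5.29% were at least 2-fold apart, beside 2.1% of all genes compared, and the fit called 25.9%, beside 14.8%. Adcy5, the striatal adenylyl cyclase, had 2613 CPM in D2 WT, beside 2599 CPM in D1 WT, and Gnal, the stimulatory G protein of striatum, 1491 CPM in D2 WT, beside 1527 CPM in D1 WT. Ppp1r1b, the phosphatase inhibitor DARPP-32, had 3667 CPM in D2 WT, beside 4349 CPM in D1 WT and did not pass the fit (edgeR adjusted p = 0.423). Gnai1, an inhibitory G protein, had 24.4 CPM in D2 WT, against 56.0 CPM in D1 WT, and Gnb4, a G protein beta subunit, had 10.2 CPM in D2 WT, against 40.0 CPM in D1 WT. Gucy1a1, a subunit of the nitric oxide receptor that makes cyclic GMP, had 277.9 CPM in D2 WT, against 100.6 CPM in D1 WT (1.46). Gnas had 140.5 CPM in D2 WT, against 11.5 CPM in D1 WT, but overlaps the model Gm20721 on the other strand, which stood at a log2 ratio of 3.40, so both are uncertain.

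Of 23 genes on a list of diacylglycerol and protein kinase C signalling, 1 was at least 2-fold higher in D2 WT and 5 lower, beside 0.867% and 1.24% of all genes compared. The list median was -0.11, and the fit called 4 higher and 6 lower, beside 7.17% and 7.63% of all genes compared. Prkca and Prkch, isoforms of protein kinase C, had 39.1 and 44.4 CPM in D2 WT, against 92.5 and 91.9 CPM in D1 WT. Dgkz, which clears diacylglycerol, had 143.8 CPM in D2 WT, against 381.9 CPM in D1 WT, and Rasgrf2, an exchange factor for Ras, 6.42 CPM in D2 WT, against 25.5 CPM in D1 WT. Prkd3, a protein kinase D, was the higher gene at 6.01 CPM in D2 WT, against 2.64 CPM in D1 WT. Prkcb, the most abundant isoform on the list by CPM, which is not scaled to length, had 695.5 CPM in D2 WT, beside 733.1 CPM in D1 WT and did not pass (edgeR adjusted p = 0.602).

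A list of adenosine formation, uptake and receptors was also chosen with earlier results of these data known. Of its 12 genes, 3 were at least 2-fold higher in D2 WT and none lower, beside 0.867% and 1.24% of all genes compared. The edgeR fit called 3 higher and 2 lower, beside 7.17% and 7.63%. The genes at least 2-fold higher were, beside Adora2a, Nt5e, the surface enzyme that makes adenosine from AMP, and Adk, which returns adenosine to AMP. Nt5e had 92.5 CPM in D2 WT, against 3.53 CPM in D1 WT, at log2 ratios of 4.69 in the WT pair and 3.75 in the Q175 pair. Adk had 22.4 CPM in D2 WT, against 6.77 CPM in D1 WT (1.72 and 1.79). Entpd1, which forms AMP from ATP outside the cell, and Slc29a1, an adenosine transporter, were under 2-fold lower, at log2 ratios of -0.86 and -0.69, and both passed the fit (edgeR adjusted p = 9.51e-06 and 2.43e-06).

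Among 54 axon guidance genes, 5 (9.26%) were at least 2-fold higher in D2 WT and 1 (1.85%) lower, beside 0.867% and 1.24% of all genes compared. The edgeR fit called 15 of them higher and 9 lower (44.4%), beside 14.8% of all genes compared. The class was set by gene symbol or list and not by a known role in guidance. Plxdc1, a plexin domain protein that is also on the list of D2 markers, had 103.3 CPM in D2 WT, against 5.81 CPM in D1 WT (4.14). Unc5d, a netrin receptor of the Unc5 family, had 12.1 CPM in D2 WT, against 0.968 CPM in D1 WT (3.58). Sema5a (2.06), Slit2 (1.70) and Robo3 (1.16) were the others, and Dscam, a homophilic recognition molecule, was the lower one, with 1.31 CPM in D2 WT, against 7.95 CPM in D1 WT. Among 145 adhesion genes 5 (3.45%) were at least 2-fold higher in D2 WT and 10 (6.9%) lower, and the fit called 19 higher and 27 lower (31.7%). Slitrk6 had 5.03 CPM in D2 WT, against 0.0262 CPM (1 count) in D1 WT, with a counting interval of the log2 ratio of 5.09 to 12.90. Ptprm, a receptor phosphatase, had 79.3 CPM in D2 WT, against 6.38 CPM in D1 WT. Lingo2, a leucine-rich repeat protein, had 0.377 CPM in D2 WT, against 19.7 CPM in D1 WT (-5.52), and Cntnap3, a relative of the neurexins, 1.81 CPM in D2 WT, against 35.1 CPM in D1 WT (-4.24).

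Nrxn2, a presynaptic adhesion protein of the neurexin family, had 213.1 CPM in D2 WT, against 67.7 CPM in D1 WT, with log2 ratios of 1.65 in the WT pair and 1.96 in the Q175 pair (edgeR adjusted p = 5.98e-14). Nrxn3 had 416.0 CPM in D2 WT, beside 393.8 CPM in D1 WT, and did not pass the fit (edgeR adjusted p = 0.633). On the list of neurexins and their ligands, 1 of 13 genes was at least 2-fold higher in D2 WT and 2 lower, among them Clstn2 (-1.24). Of all genes compared, 0.867% were higher and 1.24% lower by as much. The fit called 1 of the 13 higher and 5 lower, beside 7.17% and 7.63%. Of 17 calcium sensors and buffers 1 was at least 2-fold higher in D2 WT and 2 lower, beside 0.867% and 1.24% of all genes compared, and the fit called 4 higher and 3 lower, beside 7.17% and 7.63%. Necab1 had 291.9 CPM in D2 WT, against 49.8 CPM in D1 WT, while Hpcal1 had 0.805 CPM in D2 WT, against 6.85 CPM in D1 WT, and Vsnl1 7.14 CPM in D2 WT, against 19.6 CPM in D1 WT.

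Some separated genes lie next to each other, and several lie next to the reporter genes. Ankk1 and Ttc12, the neighbours of Drd2, had 28.0 and 38.7 CPM in D2 WT, against 0.131 and 0.262 CPM in D1 WT. Sfxn1, the neighbour of Drd1, had 22.8 CPM in D2 WT, against 1853 CPM in D1 WT, a log2 ratio of -6.34. In these counts, transcripts of a reporter transgene and of the endogenous locus cannot be told apart. Pairs away from the reporters were Il20ra (-5.03) with Slc35d3 (-4.97), Gpr6 (7.73) with Fig4 (2.48), Chrm4 (-4.28) with Mdk (-2.55) and Dgkz (-1.41), and Adra2c (-2.29) with Lrpap1 (-1.29) and Dok7 (-1.66). Where genes overlap on opposite strands and the counting is not stated to use strand, reads cannot be assigned with certainty. This touches Penk with A830012C17Rik (6.53), Chrd (2.89) with Thpo (2.65), Upb1 (6.38) with Gucd1 (0.41), Sp9 (5.71) with Cir1 (0.21), Calhm2 with Pdcd11 (0.09), Sstr2 with Slc39a11 (-0.52), Nnat (1.41) with Blcap (0.15), Nefl (-1.40) with Nefm (-0.70), and Necab1 (2.55) with Gm11837 (1.62).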

How the data were processed

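RNA from 4 pools of sorted striatal neurons was sequenced in paired reads, 1 library per group. The count table deposited by the authors holds expected counts per Ensembl gene, as the 18.7% of fractional values show, and a second table deposited by the authors holds FPKM. The one tool in the submitters' processing notes is CASAVA 1.8.2. For aligner, counter, strandedness and build the sources used here give nothing. Symbols matched 32897 of 37620 identifiers, and identifiers without one held 1.46% of the counts in D2 WT and 1.37% in D1 WT.

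Counts were rounded to whole numbers and scaled by TMM factors over all 4 libraries (edgeR 4.0.16, R 4.3.3). The log2 ratio of D2 WT over D1 WT used a prior count of 2, with a 95% exact conditional binomial interval. Between the WT libraries alone there is no p-value. The edgeR quasi-likelihood test (filterByExpr, 15668 genes, two-sided, Benjamini-Hochberg at 0.05) was fitted to the 4 libraries with terms for genotype and cell type, and was tested on simulated data. Its spread comes from pools, not animals. Alternatives were other scalings, prior counts and CPM minimums, FPKM, DESeq2 1.42.0 and limma 3.58.1. Intervals and the floor of 3 counts cover counting error only.

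The members, gene lists and classes were chosen with earlier results of these data known, and the class lists were completed after values were seen. Named were the 15 highest and 15 lowest ratios, all receptors, channels, transcription factors and peptides at least 2-fold apart, up to 8 per direction of other classes and lists, and the dopamine, adenosine, muscarinic and opioid genes. Some of these are not reported here. This gave 114 genes, 33 of them with counts that are not whole. Genes of the pathway lists, neighbours and family members under 2-fold were named after their values were seen.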

Additional observations from a re-analysis of the deposited data

Results flagged for a closer look

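Of the genes at least 2-fold apart in the WT pair, 3 had a ratio of the opposite sign in the Q175 pair. Fbn1, which encodes the matrix protein fibrillin, had a log2 ratio of D2 over D1 of 1.26 in WT and -0.37 in Q175, with 6.16 CPM in D2 WT, beside 2.54 CPM in D1 WT. Tpt1-ps3, a pseudogene, had -1.14 in WT and 0.04 in Q175. The identifier ENSMUSG00000078191, which matched no symbol, had -1.38 in WT and 0.13 in Q175. With 1 library per group these differences were not tested.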

How the results depend on the processing

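Scaling by library totals or by DESeq2 size factors left 94 genes at least 2-fold higher and 134 lower in D2 WT, and none of the 110 named 2-fold genes was lost with either or with a prior count of 0.5. On FPKM with a pseudocount of 0.1, 6 of the 110 fell under 2-fold, and with a pseudocount of 1, 33 did. The counts of 2-fold genes followed the level required: 61 higher and 80 lower on FPKM with a pseudocount of 1, 194 and 255 at a CPM minimum of 1, and 43 and 63 at a minimum of 20. At a minimum of 20, receptors gave 5 higher and 5 lower, channels 3 lower, and transcription factors 3 higher and 6 lower. At a minimum of 1, receptors gave 18 lower and transcription factors 16 higher, and on FPKM with a pseudocount of 1 transcription factors gave 4 higher. Among the 110 named 2-fold genes no direction was reversed under these alternatives, and other genes were not checked for this. The 4-library test depended on its settings: it called 1052 genes higher and 1051 lower in D2, DESeq2 called 380 and 495, no filter on low counts 286 and 377, no genotype term 32 and 45, limma on FPKM 642 and 710, and scaling by library totals 763 and 972. Without the genotype term 59 of the 114 named genes no longer passed. No paired analysis was possible because each group has 1 library, so the groups share fewer than 2 replicate numbers. At this depth 3 counts stood for 0.0755 CPM in D2 WT, beside 0.0784 CPM in D1 WT.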

Other observations

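Secreted and receptor genes of growth factor systems held further separated genes. Nell1, a secreted protein of bone growth, had 35.7 CPM in D2 WT, against 1.05 CPM in D1 WT, at log2 ratios of 5.03 in the WT pair and 5.32 in the Q175 pair. Bmp7 (1.53) and Wnt7a (1.13), growth factors, were higher in D2 WT, and Gdnf (-1.29), Nrg3 (-1.56) and Mdk (-2.55) lower. Erbb4, the neuregulin receptor, had 3.72 CPM in D2 WT, against 13.1 CPM in D1 WT. The related receptor kinases Alk (2.07) and Ltk (-1.91) lay at opposite ends, with 6.19 CPM in D2 WT, beside 1.44 CPM in D1 WT for Alk, and 8.63 CPM in D2 WT, beside 32.6 CPM in D1 WT for Ltk. Il20ra, a cytokine receptor subunit, had 0.528 CPM in D2 WT, against 18.9 CPM in D1 WT. Solute carriers gave no gene at least 2-fold higher in D2 WT and 3 lower among 187 (1.6%), beside 0.867% higher and 1.24% lower among all genes compared. The edgeR fit called 16 of them higher and 21 lower (19.8%), beside 14.8% of all genes compared. The lower ones were led by Slc35d3 with 5.21 CPM in D2 WT, against 164.9 CPM in D1 WT.

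Of 8 neurofilament and stathmin genes 2 were at least 2-fold lower in D2 WT and none higher, beside 1.24% lower among all genes compared, and the edgeR fit called 3 lower, beside 7.63%. Nefl, the light neurofilament subunit, had 143.7 CPM in D2 WT, against 380.0 CPM in D1 WT, but overlaps Nefm (-0.70) on the other strand, so its reads are uncertain. Stmn2, a microtubule regulator of growing axons, had 11.6 CPM in D2 WT, against 77.6 CPM in D1 WT. Rab3b and Rph3a, which act on synaptic vesicles, had WT log2 ratios of -1.53 and -1.42. Fxyd5 and Fxyd7, neighbouring regulators of the sodium pump, had -2.37 and -2.95. Higher in D2 WT were B3gat1, which makes the HNK-1 carbohydrate (370.4 CPM in D2 WT, 64.7 CPM in D1 WT), and Fam163b (189.8 CPM in D2 WT, 38.8 CPM in D1 WT). These genes belong to no receptor, channel, transcription factor or peptide class and were picked after their values were seen.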
